A study of Homo sapiens with 12 samples.

Results

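The hypoxia response and glycolysis genes described here are a list of 38 human genes that cells raise when oxygen is short or use to break down glucose. They were chosen by name, as classical targets of hypoxia-inducible factor, enzymes of glycolysis, glucose transporters and their regulators. The aldolase ALDOC, the secreted glycoprotein STC1 and the mitophagy receptor BNIP3L are the marker genes. The choice was made with earlier results of these data known, so the counts and tests below are not independent of those results. The brightest probe set with a single gene symbol stood for each gene. Of the 38 listed genes, 35 had such a probe set among 33616 genes in all, and 30 of them were among the 15247 genes kept by a filter on low signal, which asked for 6.5 or more as the mean log2 value of the 6 Dox(-) arrays. CA9, SLC16A3 and PFKFB4 have no value here, and NDRG1, EGLN3, P4HA2, ANKRD37 and ENO2 lay below the filter.

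Hypoxia-inducible factor is a pair of proteins, an oxygen-controlled alpha subunit such as HIF1A and the constant partner ARNT. With oxygen present, prolyl hydroxylases such as EGLN1 mark the alpha subunit for destruction through VHL. Without it, the pair binds a short DNA motif and switches on genes for glucose uptake, glycolysis, blood vessel growth, matrix hydroxylation and removal of mitochondria. Tumour cells often run the same glycolytic genes with oxygen present.

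Expression was measured on 12 Human Clariom D microarrays, 1 per condition, in 2 Ewing sarcoma (EwS) cell lines, SK-N-MC and RDES. Each line carried a doxycycline (Dox)-inducible lentiviral shRNA with puromycin selection, either a non-targeting control (shCtrl) or 1 of 2 hairpins against the cytokinesis gene PRC1, directed at its coding region (shCDS) or its untranslated region (shUTR). Cells were grown for 60 h without Dox, Dox(-), or with 1 µg/ml Dox, Dox(+), which gives 6 derivative lines with a pair of arrays each. A line is a transduced and selected culture, no condition was repeated, and shCDS and shUTR cells without Dox carry their hairpin uninduced.

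PRC1 checked the hairpins: its log2 signal fell from 15.56 to 11.55 in SK-N-MC shCDS, from 15.59 to 12.66 in SK-N-MC shUTR, from 14.50 to 10.54 in RDES shCDS and from 14.75 to 13.29 in RDES shUTR, while both shCtrl pairs stayed between 15.59 and 15.71. The pair labelled RDES shCtrl lay with SK-N-MC. Its STAG2 signals were 6.10 and 6.01, against 13.78 to 14.01 in the RDES shPRC1 arrays, and its BGN signals were 15.59 and 15.67, against 4.42 to 4.78. SK-N-MC shCtrl had STAG2 at 9.15 and 9.32, above the 5.84 to 6.06 of the SK-N-MC shPRC1 arrays. Labels are used as given. The tests were also run without each shCtrl pair. The main Dox(-) counts and the starts of the members' falls are given against either shCtrl culture. The ends of the falls and the pathway lists are given against SK-N-MC shCtrl alone. The 2 Dox(-) arrays of SK-N-MC shCDS and shUTR were closer to each other, with a median absolute difference of 0.18 on the log2 scale, than any other pair of arrays except the pair labelled RDES shCtrl (0.16). All 12 Ewing sarcoma markers with a value (CD99 and CCND1 among them) passed the filter, against 2 of 7 epithelial, 1 of 6 haematopoietic and 1 of 7 endothelial markers and 5 of 6 fibroblast markers, whose mean log2 signal was 9.26 to 10.34 in the SK-N-MC arrays and the pair labelled RDES shCtrl and 8.25 to 8.57 in the RDES shPRC1 arrays. Single fibroblast markers differed from SK-N-MC shCtrl without Dox in shCDS and shUTR, with DCN at -1.29 and -1.27, LUM at -1.33 and -1.83 and COL1A2 at 1.48 and 0.97. Dox(+) minus Dox(-) within shCDS and shUTR was -1.70 and -1.17 for LUM and -1.06 and -0.69 for DCN. In SK-N-MC shCtrl it was -0.24 for LUM and -0.54 for DCN, and in the pair labelled RDES shCtrl -0.46 and -0.57. The part of these markers in the results was not tested. Median signals over the kept genes ranged from 9.41 to 9.67.

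The DNA letters that hypoxia-inducible factor recognises are shown for 6 members, because they include genes that stood high before Dox and genes that did not. RefSeq windows of 300 bases (250 before to 50 after 1 annotated start per gene, build GRCh38.p14) were searched for ACGTG and GCGTG on both strands. CACGTG, which other factors also bind, thus counts on each strand. Windows were found for 33 of the 38 members and not for STC1, BNIP3L, NDRG1, VEGFA and SLC2A3. Each line gives 29 bases, 5′ to 3′ on the strand of the gene, with the motif in capitals.
ALDOC (chr17:28576907-28576935, minus strand): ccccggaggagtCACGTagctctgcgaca
BNIP3 (chr10:131982040-131982068, minus strand): cgcacgcgccgcACGTGccacacgcaccc
DDIT4 (chr10:72273787-72273815, plus strand): agaacgttgcttACGTGcgcccggagtcc
P4HA1 (chr10:73096936-73096964, minus strand): tgtgatcgagctCACGTagcgagggctgc
LDHA (chr11:18394478-18394506, plus strand): cgtgggttcccgCACGTccgccggccccc
GAPDH (chr12:6535172-6535200, plus strand): ctctgcggggtcACGTGtcgcagaggagc
All 6 windows shown hold ACGTG on either strand. The first 4 belong to genes that stood at least 1 log2 unit above SK-N-MC shCtrl in both SK-N-MC shPRC1 cultures without Dox. LDHA stood 0.48 and 0.54 above it, and GAPDH 0.02 and 0.08. KDM3A, SLC2A1, PFKFB3 and PDK1, not shown, also stood at least 1 above in both. The windows of the first 3 of these held no ACGTG, and that of PDK1 held no motif. The GAPDH bases shown lie inside the gene, which begins at position 6534517, because its window was set on a later start. A motif was present in 24 of 33 member windows (72.7%) and in 48.4% of 27305 windows in all. Among genes kept by the filter, it was in 20 of 26 member windows (76.9%) and in 63.3% of all windows. ACGTG alone was in 12 of the 26 windows of kept members (46.2%), against 26.7% of the windows of all kept genes. The ALDOC window held 5 motifs, BNIP3 and LDHA 6 each, DDIT4 4 and PDK1 and HK1 0. Windows with 2 or more motifs were as common among kept members (9 of 26, 34.6%) as among all kept genes (34.1%). A match is a string of letters and no measured site.

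Without Dox, the hypoxia response and glycolysis genes stood higher in both SK-N-MC shPRC1 cultures than in SK-N-MC shCtrl. In shCDS, 12 of 30 members were higher by 1 log2 unit (2-fold) or more, where 3.51% of all kept genes were, and the median difference was 0.77 for the members and 0.14 for all genes. In shUTR, 11 members were higher by that much, where 3.77% of all genes were, with medians of 0.79 and 0.18. The pair labelled RDES shCtrl had no member at that distance from SK-N-MC shCtrl, where 2.29% of all genes were higher, and its median was 0.24 against 0.17. No comparison of 1 array with 1 array has a replicate, so these counts have no test. In such bulk RNA, fewer cells of a kind and less RNA per cell cannot be told apart.

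Against the pair labelled RDES shCtrl as the reference, 5 members were higher by 1 or more in each culture without Dox, where 1.94% of genes were for shCDS and 1.87% for shUTR. They were ALDOC, STC1, BNIP3, DDIT4 and PDK1 in both. The members' median was 0.49 in shCDS and 0.46 in shUTR, lower than against SK-N-MC shCtrl, and the median of all genes was -0.01 and 0.01. The height of the excess therefore depended on which shCtrl array was the reference, and its presence in these 5 genes did not.

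The 2 members furthest above SK-N-MC shCtrl were ALDOC and DDIT4, and against the pair labelled RDES shCtrl they were ALDOC and STC1. ALDOC, the aldolase of brain that splits a fructose bisphosphate, had log2 signals without Dox of 7.64 in SK-N-MC shCtrl, 11.42 in shCDS, 11.37 in shUTR, 7.97 in the pair labelled RDES shCtrl, 8.03 in RDES shCDS and 8.22 in RDES shUTR. With Dox they were 8.81, 7.94, 8.81, 8.17, 9.10 and 7.98 in the same order. The 2 SK-N-MC shPRC1 arrays without Dox thus stood alone, by 2.26 log2 units over the highest of the other 10 arrays.
ALDOA, the aldolase of most tissues, lay between 16.18 and 16.73 in all 12 arrays, and ENO1, the common enolase, between 17.88 and 18.65.

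STC1, a secreted regulator of calcium and phosphate handling, read 8.84, 11.61, 11.56, 8.29, 9.21 and 9.76 without Dox in the order SK-N-MC shCtrl, shCDS, shUTR, RDES shCtrl, RDES shCDS and RDES shUTR. With Dox it read 9.10, 8.62, 9.13, 8.22, 10.27 and 10.01. The same 2 arrays were again the highest, and both RDES shPRC1 lines lay above every shCtrl array.

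DDIT4, a stress-induced inhibitor of mTORC1 also called REDD1, read 9.44, 12.63, 12.72, 9.81, 7.56 and 7.17 without Dox in that order. With Dox it read 10.69, 9.94, 12.22, 10.31, 7.66 and 7.10. The level came down to that of shCtrl with shCDS but differed by only -0.50 from its start with shUTR, and the RDES shPRC1 arrays were the lowest of all.

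The mitophagy receptors BNIP3 and BNIP3L, which sit on the outer mitochondrial membrane and recruit the autophagy machinery, started high together. BNIP3 read 12.19, 13.98, 13.91, 12.28, 12.47 and 12.86 without Dox and 12.24, 12.93, 12.73, 12.23, 12.98 and 12.96 with Dox. BNIP3L read 13.92, 14.93, 14.96, 14.12, 14.81 and 14.86 without Dox, and 14.22, 11.53, 13.60, 14.06, 12.48 and 14.65 with Dox. BNIP3 returned to the range of the RDES arrays, whereas for BNIP3L the 2 shCDS arrays with Dox, 1 of each cell line, were the lowest of the 12.

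PDK1, a kinase that shuts off pyruvate dehydrogenase, read 10.07, 12.42, 12.09, 10.98, 11.38 and 11.18 without Dox. With Dox it read 10.63, 10.53, 11.06, 11.15, 10.83 and 11.13. Again the 2 SK-N-MC shPRC1 arrays without Dox were the highest, and with Dox all 6 arrays lay within 0.62 of one another.

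Of the glucose entry genes, SLC2A1, the main glucose transporter GLUT1, read 10.38, 11.65, 11.65, 10.97, 12.07 and 11.85 without Dox and 10.76, 10.38, 10.57, 10.74, 10.93 and 12.47 with Dox. Both RDES shPRC1 lines were high for SLC2A1 before Dox, and RDES shUTR rose further. SLC2A3, the high-affinity transporter GLUT3, was 0.59 and 0.71 above SK-N-MC shCtrl in shCDS and shUTR without Dox and -0.27 and 0.04 with Dox.
HK2, the inducible hexokinase that traps glucose as its phosphate, read 8.58, 9.34, 9.35, 8.77, 9.69 and 9.26 without Dox and 8.65, 8.64, 8.42, 8.58, 9.51 and 9.32 with Dox. HK1, the constitutive hexokinase, read 6.43, 7.41, 7.14, 6.68, 10.52 and 10.26 without Dox and 7.17, 6.71, 4.58, 7.47, 10.98 and 10.73 with Dox. HK1 was far higher in the RDES shPRC1 arrays than in all others, and its lowest value was SK-N-MC shUTR with Dox.

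PFKFB3, which makes the allosteric activator of phosphofructokinase, read 6.64, 7.99, 8.09, 7.42, 7.46 and 6.99 without Dox and 7.45, 7.07, 7.12, 7.51, 6.99 and 7.44 with Dox. P4HA1, a subunit of collagen prolyl hydroxylase, read 10.80, 12.01, 11.92, 11.46, 11.19 and 11.53 without Dox and 11.05, 10.76, 11.07, 11.34, 11.38 and 11.60 with Dox. PLOD2, a collagen lysyl hydroxylase, read 14.22, 15.03, 15.24, 14.86, 12.15 and 11.31 without Dox and 14.25, 14.09, 14.27, 14.85, 11.77 and 11.37 with Dox. For all 3 the SK-N-MC shPRC1 arrays without Dox were the highest of the 12, by 0.17 for PLOD2, where the pair labelled RDES shCtrl came close.

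**Figure D1:**
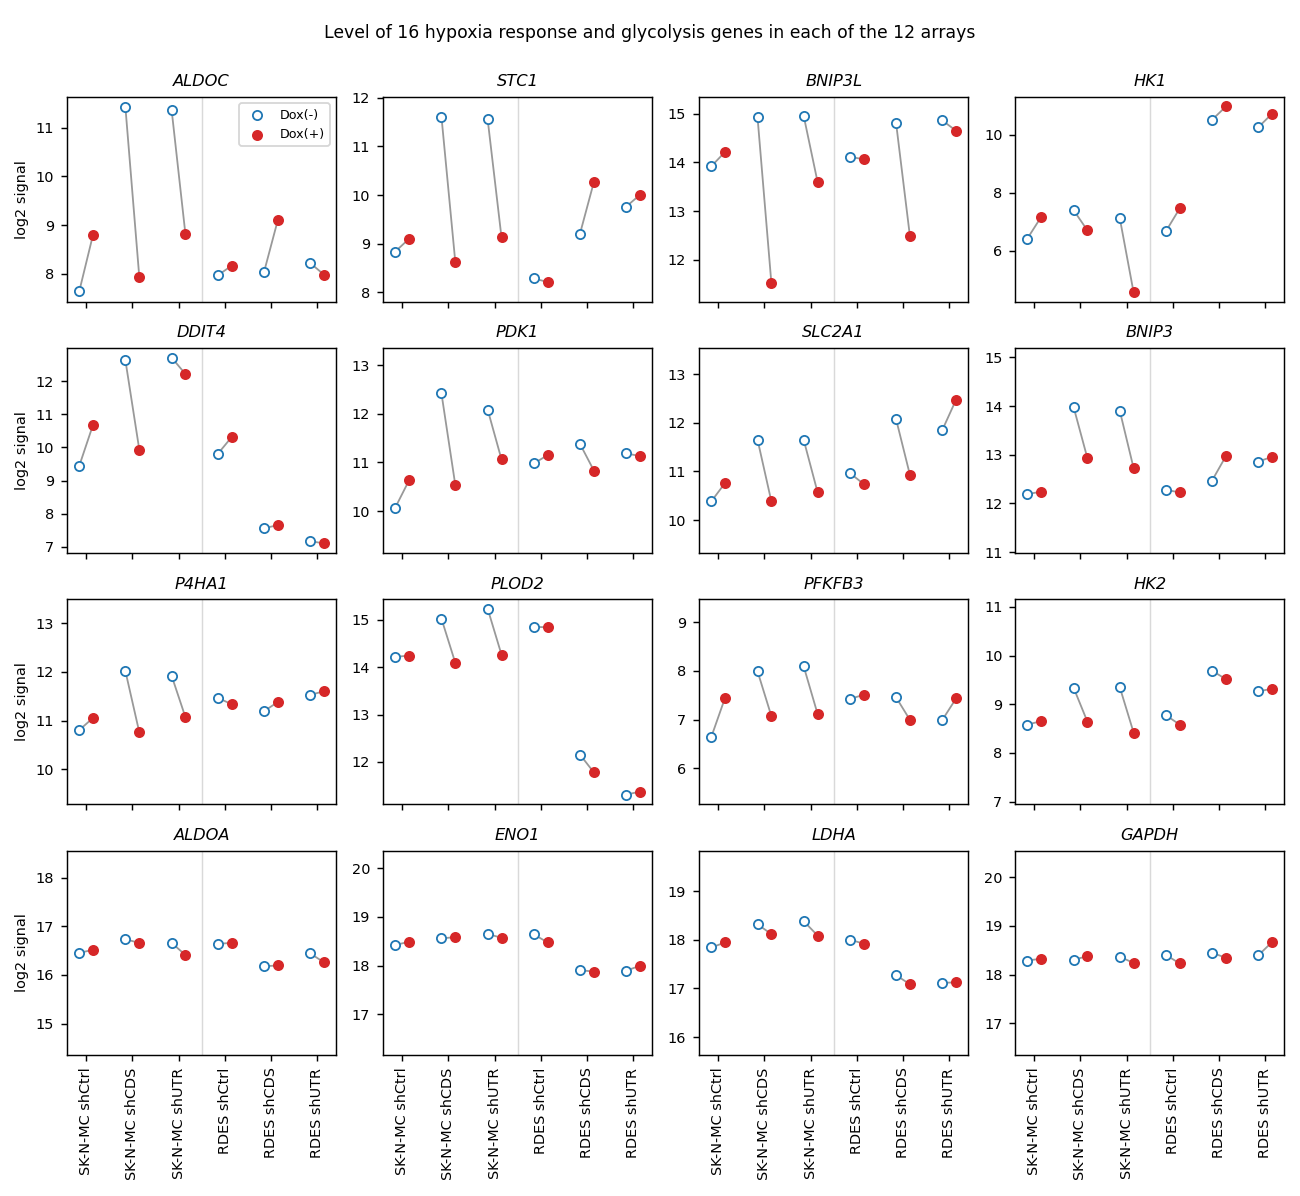
Log2 signal (vertical axis, a span of at least 4.2 in each panel) of the 12 members described by array and 4 glycolytic enzymes in each derivative line (horizontal axis), without Dox (open circles) and with Dox (filled circles), 1 array per circle. ALDOC, STC1, DDIT4, PDK1 and BNIP3 are highest in the open circles of SK-N-MC shCDS and shUTR, while ALDOA, ENO1 and GAPDH are almost level along SK-N-MC.

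The other enzymes of the glycolytic chain differed less than ALDOC. PGK1, which makes ATP from bisphosphoglycerate, was 1.02 and 0.81 above SK-N-MC shCtrl without Dox in shCDS and shUTR, and PGAM1, the mutase after it, 0.66 and 0.96. TPI1 was 0.52 and 0.62 above, the phosphofructokinase PFKP 0.44 and 0.63 and the isomerase GPI 0.40 and 0.59. ENO1, GAPDH and ALDOA were at most 0.28 above, in either culture, and the muscle-type pyruvate kinase PKM 0.25 and 0.33. PFKL, the liver-type phosphofructokinase, was -0.24 and 0.29. These are among the brightest genes on the array, with log2 signals of up to 18.67 for GAPDH.

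Among the regulators, EGLN1 was 1.04 and 0.85 above SK-N-MC shCtrl without Dox, the histone demethylase KDM3A 1.11 and 1.06 and the MYC antagonist MXI1 0.78 and 0.93. HIF1A itself, whose protein is set by its destruction more than by its RNA, was 0.19 and 0.03 above. VEGFA, the growth factor for blood vessels, was 0.19 and 0.46 above and the vasodilator peptide ADM 0.38 and 0.10. The known targets VEGFA and ADM thus did not share the size of the ALDOC, STC1 and DDIT4 difference. ADM lay close to the filter at 6.5, with 6.41 in SK-N-MC shCtrl, 6.79 in shCDS and 6.51 in shUTR without Dox. In the 5 members below the filter, the largest difference from SK-N-MC shCtrl without Dox in these cultures was -0.75, for P4HA2 in shUTR.

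The separation was also counted over arrays. In 19 of 30 members, both SK-N-MC shPRC1 arrays without Dox lay above all 6 other arrays of the SK-N-MC lines and the pair labelled RDES shCtrl, those with Dox included. Of all kept genes, 8.12% did so. The 19 were ALDOC, ALDOA, STC1, BNIP3, BNIP3L, DDIT4, EGLN1, P4HA1, PLOD2, KDM3A, SLC2A1, SLC2A3, HK2, PFKP, PFKFB3, PGK1, LDHA, PDK1 and MXI1, with a gap of 2.56 for ALDOC and of less than 0.1 for ALDOA, PFKP and MXI1.

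The limma test of the Dox(-) arrays took the 2 SK-N-MC shPRC1 cultures against both shCtrl cultures, and the spread came from 3 residual degrees of freedom over 6 cultures. It called 58 genes higher (0.38% of 15247) and 19 lower (0.125%) at an adjusted p under 0.05. Of the members, 4 were higher and 0 lower. ALDOC was higher by 3.59 ± 0.22 (SE, adjusted p = 0.00069), DDIT4 by 3.05 ± 0.24 (adjusted p = 0.00187), STC1 by 3.02 ± 0.27 (adjusted p = 0.00493) and BNIP3 by 1.71 ± 0.22 (adjusted p = 0.016). PDK1 had a difference of 1.73 ± 0.31 (adjusted p = 0.0555) and BNIP3L of 0.93 ± 0.21 (adjusted p = 0.103). The members' median was 0.64, against 0.08 over all genes, and 27 of 30 were above 0. ALDOC, DDIT4 and STC1 kept an adjusted p under 0.05 in all 12 alternatives, and BNIP3 lost it without either shCtrl pair or either SK-N-MC shPRC1 line (adjusted p 0.0525 to 0.159). The cultures are single lines, so the p-values measure the spread between lines and not between repeats of a line.

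With Dox, most members in the SK-N-MC shPRC1 cultures were near the level of shCtrl with Dox. That reference had itself changed, as ALDOC was 1.17 and DDIT4 1.25 higher in SK-N-MC shCtrl with Dox than without. Of the members, 0 of 30 passed the same test on the 6 Dox(+) arrays, with a smallest adjusted p of 0.352, where 2 genes were called higher (0.0131%) and 8 lower (0.0525%). At an unadjusted p under 0.05 it held 3 of 30 members, where 11.2% of all genes (1714) passed. The members' median was 0.06. ALDOC stood at -0.11 ± 0.44, STC1 at 0.22 ± 0.35, BNIP3 at 0.59 ± 0.24 and DDIT4 at 0.58 ± 0.62 relative to shCtrl. The exceptions, by single arrays against SK-N-MC shCtrl with Dox, were BNIP3L in shCDS (-2.69), HK1 (-2.60) and PFKL (-1.28) in shUTR and DDIT4 in shUTR (1.53 above).

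**Figure D2:**
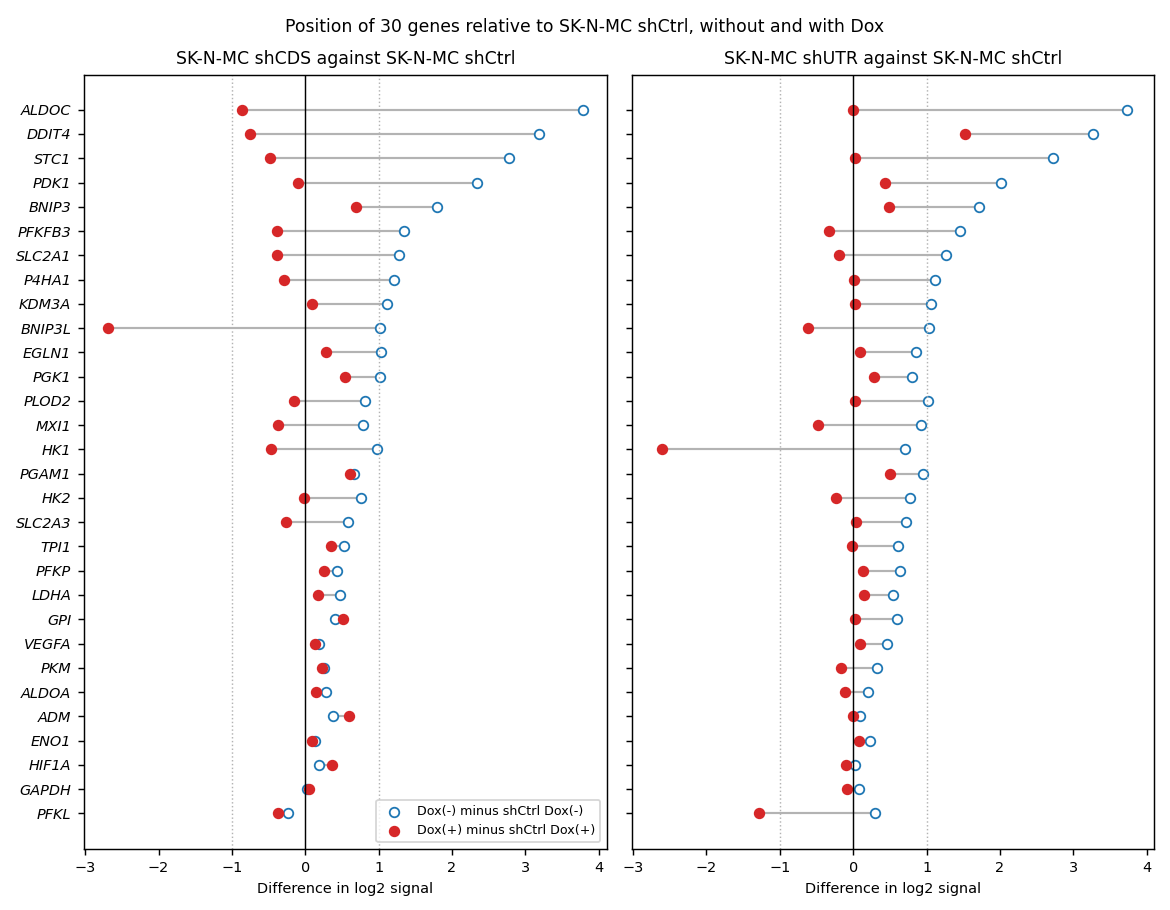
Difference in log2 signal from SK-N-MC shCtrl (horizontal axis) for the 30 members kept by the filter (rows), in SK-N-MC shCDS (left) and shUTR (right). Open circles compare the arrays without Dox and filled circles those with Dox, 1 array each, and dotted lines mark 1 log2 unit either way. Most genes start to the right of 0 and end near it, while BNIP3L with shCDS ends at -2.69 and HK1 with shUTR at -2.60.

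The falls on addition of Dox were set against the level from which each gene started. Starts were taken relative to shCtrl without Dox and ends relative to shCtrl with Dox. In SK-N-MC shCDS, 8 members fell by 1 log2 unit or more (1.48% of all genes did), namely ALDOC, STC1, BNIP3, BNIP3L, DDIT4, P4HA1, SLC2A1 and PDK1. All 8 had started at least 1 above SK-N-MC shCtrl, with a median start of 2.07 and a median end of -0.43. Of the 226 genes in all that fell by that much, 53 (23.5%) had started there. In SK-N-MC shUTR, 8 members fell by 1 or more (2.98% of all genes did), and 6 of them had started at least 1 above, with a median start of 1.49 and a median end of -0.09. The other 2 were HK1 and PFKL, which ended below shCtrl, and of all 454 genes that fell, 113 (24.9%) had started there. Against the pair labelled RDES shCtrl, fewer of these members had started at least 1 above. In shCDS, BNIP3L (0.82), SLC2A1 (0.69) and P4HA1 (0.55) had not. In shUTR, BNIP3L (0.84), SLC2A1 (0.68), HK1 (0.46) and PFKL (0.03) had not. All 8 in each culture had started above both shCtrl cultures, where 61.1% of the genes that fell in shCDS and 68.9% in shUTR had. The start and the fall share the Dox(-) array, so a high reading in that array alone raises both.

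A pairing of arrays that shares none was therefore set beside it. Over the 30 members, the Dox difference of SK-N-MC shCDS and the Dox(-) excess of SK-N-MC shUTR over the pair labelled RDES shCtrl had a Pearson r of -0.80 and a Spearman rho of -0.69. With the cultures exchanged, r was -0.63 and rho -0.60. Over all 15247 genes the same values of r were -0.10 and -0.07. Genes are not independent replicates, and all arrays were normalized together, so these values are a description. The members highest in 1 culture without Dox were among those that came down most in the other.

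**Figure D3:**
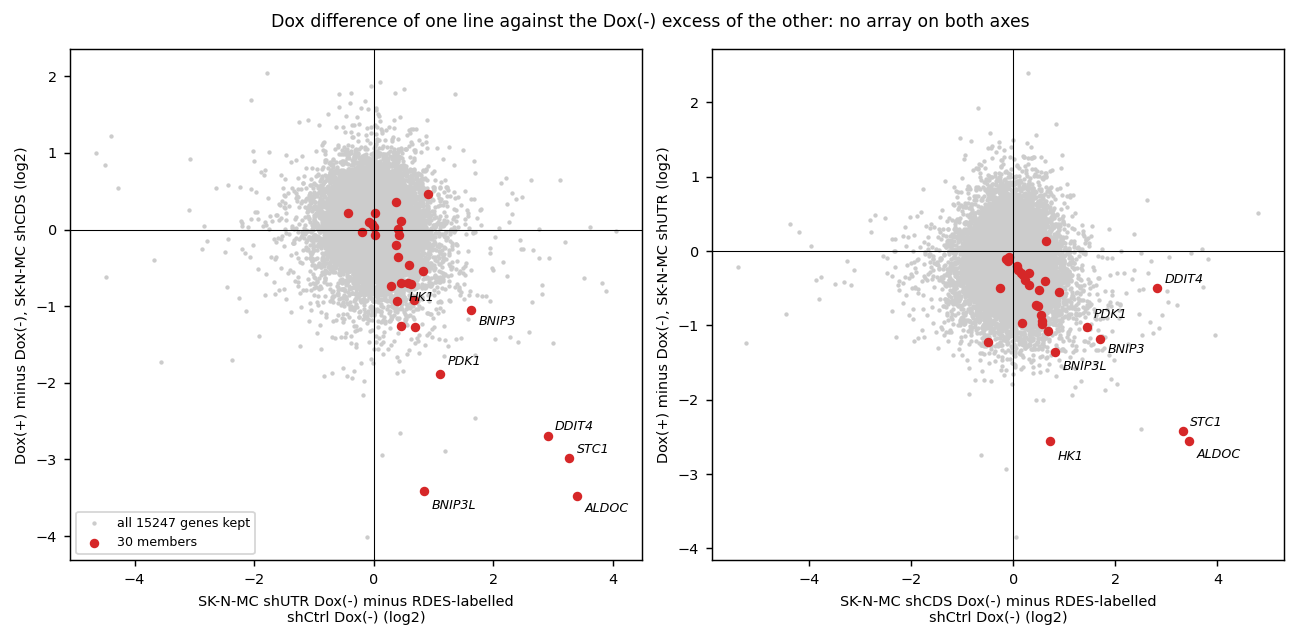
Dox(+) minus Dox(-) in 1 SK-N-MC shPRC1 line (vertical axis, log2) against the Dox(-) excess of the other line over the pair labelled RDES shCtrl (horizontal axis, log2), for 15247 genes (grey) and 30 members (red). ALDOC and STC1 lie at the lower right in both panels, DDIT4 does so where shCDS is on the vertical axis, and the cloud of all genes shows r of -0.10 and -0.07.

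Across the derivative lines, the members' median Dox difference was -0.50 in shCDS and -0.54 in shUTR (0.07 and -0.15 over all genes), and 0.01 and 0.09 in RDES shCDS and shUTR (-0.05 and 0.17). In RDES shCDS, 2 members fell by 1 or more (3.97% of all genes did), BNIP3L (-2.33) and SLC2A1 (-1.14), while ALDOC and STC1 were 1.07 and 1.06 higher with Dox. In RDES shUTR, 0 members did (0.216% of all genes), and BNIP3L differed by -0.21. BNIP3L was thus lower with shCDS in both cell lines, without a matching fall with shUTR in RDES. The shCtrl line of SK-N-MC was not flat: ALDOC was 1.17 and DDIT4 1.25 higher with Dox, the 2 members past 1 (0.636% of all genes were), and 28 of 30 members were above 0, with a median of 0.17 against 0.11 over all genes. In the pair labelled RDES shCtrl the members' median was -0.06.

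**Figure D4:**
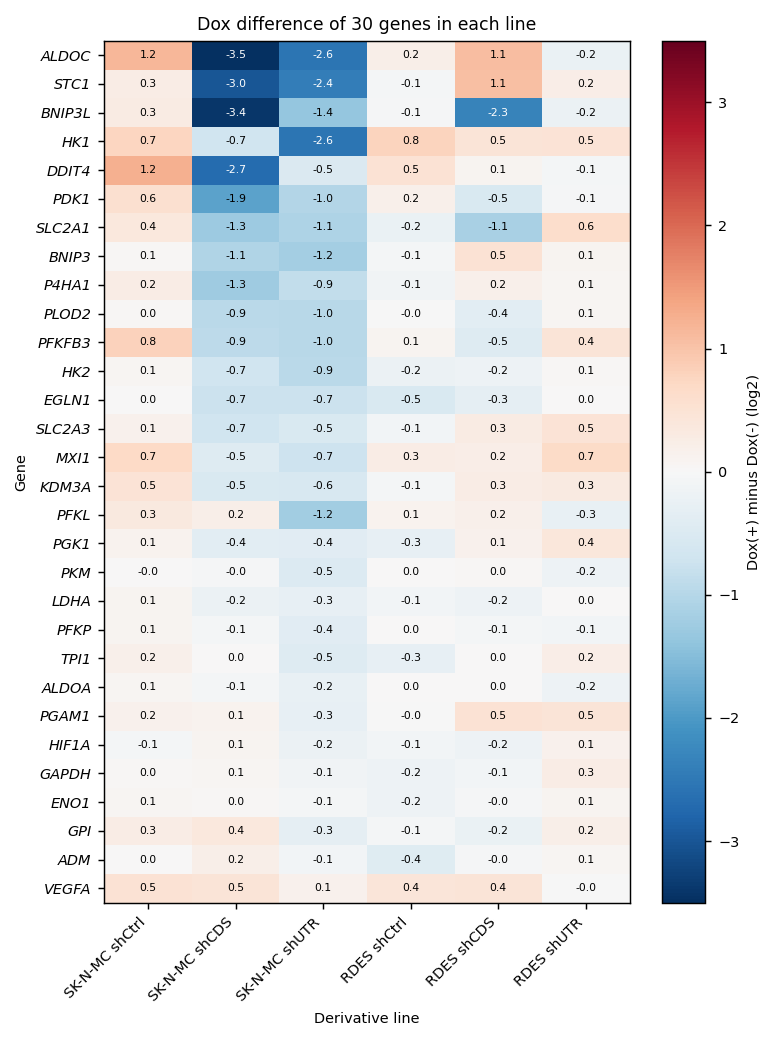
Dox(+) minus Dox(-) in log2 signal (colour and printed value, 1 pair of arrays each) for the 30 members (rows) in each derivative line (columns), ordered by the sum over the SK-N-MC shPRC1 lines. The 2 SK-N-MC shPRC1 columns are negative for most genes, and in the RDES columns the values past 1 either way are BNIP3L (-2.33), SLC2A1 (-1.14), ALDOC (1.07) and STC1 (1.06), all in RDES shCDS.

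The limma test of the Dox difference in the 2 SK-N-MC shPRC1 lines, less that of the shCtrl lines, called 0 of 15247 genes (0%) and no member. ALDOC had -3.70 ± 0.49 and STC1 -2.80 ± 0.37, both with an adjusted p of 0.0682, the smallest of all genes. At an unadjusted p under 0.05, 934 genes passed, and 14 of 30 members were lower, where 4.32% of all genes were. The median was -0.69 for the members and -0.05 for all genes, and 26 of 30 members were below 0. ALDOC and STC1 had an adjusted p under 0.05 in 4 of 12 alternatives, without the filter, without subtraction of shCtrl and without either RDES shPRC1 line, and the range over the alternatives was 0.0164 to 1 for ALDOC and 0.00573 to 1 for STC1.

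Averaged over all 4 shPRC1 lines, each less the shCtrl of its labelled cell line, the test called 0 genes (0%). At an unadjusted p under 0.05 it held 6 of 30 members, where 2.63% of all genes (401) passed. ALDOC had -1.99 ± 0.74 and BNIP3L -1.95 ± 0.62 there. The members' median was -0.28, against -0.01 over all genes. It turned to 0.11 without SK-N-MC shCtrl (0.12 over all genes) and was -0.81 without the pair labelled RDES shCtrl (-0.15 over all genes).

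The test of the difference between the cell lines called STC1 alone of all 15247 genes (0.00656%). STC1 fell in both SK-N-MC shPRC1 lines and was 1.06 higher with Dox in RDES shCDS. In RDES shUTR it was 0.24 higher, beside 0.26 in SK-N-MC shCtrl. The Dox difference of STC1 was 3.36 ± 0.37 log2 units lower for the SK-N-MC lines than for the RDES lines (adjusted p = 0.0223). This call was lost with arrays shifted to a common median, with a prior variance that follows the signal, and without either SK-N-MC shPRC1 line or without RDES shCDS. ALDOC had -3.44 ± 0.49 (adjusted p = 0.14), BNIP3 -1.42 ± 0.32 (adjusted p = 0.385) and BNIP3L -1.11 ± 0.69 (adjusted p = 0.91). The members' median was -0.71, against -0.08 over all genes.

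Before Dox the cell lines differed widely, as SK-N-MC shPRC1 cultures had 3080 genes called higher (20.2%) and 2031 called lower (13.3%) relative to RDES shPRC1 cultures. Of the members, 13 were higher, which are ALDOC, BNIP3, DDIT4, EGLN1, ENO1, GPI, LDHA, MXI1, PDK1, PFKP, PGK1, PLOD2 and STC1. The 2 lower members were HK1 (-3.12 ± 0.23, adjusted p = 1.89e-05) and VEGFA (-0.96 ± 0.24, adjusted p = 0.0128). DDIT4 was higher by 5.31 ± 0.24 (adjusted p = 3.1e-06), PLOD2 by 3.40 ± 0.32 (adjusted p = 7.98e-05) and GPI by 1.74 ± 0.22 (adjusted p = 0.000369). Without Dox, SK-N-MC shCtrl also lay above both RDES shPRC1 arrays for DDIT4, PLOD2, GPI, PFKP, LDHA, ENO1 and PGK1. It did not for ALDOC, BNIP3, EGLN1, MXI1, PDK1 and STC1. SLC2A1 (-0.31), HK2 (-0.13) and BNIP3L (0.11) differed little and had adjusted p of 0.383, 0.711 and 0.736.

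Other genes of the pathway were read from 5 lists. Of 39 other targets of hypoxia-inducible factor, 27 were kept. Their median difference from SK-N-MC shCtrl without Dox was 0.65 in shCDS and 0.71 in shUTR (0.14 and 0.18 over all genes). In shCDS and shUTR, 7 and 5 of them were higher by 1 or more (3.51% and 3.77% of all genes were). In each, 1 was lower by that much, the growth factor carrier IGFBP3 (-1.71 and -1.45). With Dox, 4 and 5 of the 27 fell by 1 or more (1.48% and 2.98% of all genes did). Their medians were -0.25 and -0.64 (0.07 and -0.15 over all genes), and STC2, a relative of STC1, was 1.22 higher in shUTR. TMEM45A, a membrane protein raised by hypoxia, read 9.28 in SK-N-MC shCtrl, 11.01 in shCDS and 11.07 in shUTR without Dox and 9.51, 9.59 and 9.46 with Dox. INSIG2, which retains the sterol sensor in the endoplasmic reticulum, read 9.41, 10.25 and 10.25 and then 9.48, 9.16 and 9.35. WSB1, a ubiquitin ligase subunit, was 0.25 and 0.23 above shCtrl and differed by -0.94 and -1.17 with Dox. The collagen and elastin crosslinker LOX went another way. Without Dox it read 12.19 in SK-N-MC shCtrl, 11.41 in shCDS, 11.66 in shUTR and 15.22 in the pair labelled RDES shCtrl. With Dox, LOX differed by -1.73 in shCDS and -0.64 in shUTR, so that it fell from a start below SK-N-MC shCtrl. BHLHE40, a circadian and hypoxia-induced repressor named here after its values were seen and below the filter, read 4.51, 8.28 and 7.85 without Dox and 4.48, 6.16 and 5.84 with Dox in the same 3 cultures. None of TMEM45A (adjusted p = 0.153), INSIG2 (adjusted p = 0.116) and LOX (adjusted p = 0.244) passed the test of the Dox(-) level, against both shCtrl cultures. Of this list, AK4, a mitochondrial adenylate kinase, was higher by 1.37 ± 0.23 and IGFBP3 differed by -1.56 ± 0.26, both with an adjusted p of 0.0482. Of the genes in this list that fell by 1 or more, TMEM45A in both cultures and AK4 in shUTR had started at least 1 above SK-N-MC shCtrl. INSIG2 (0.84) and ERO1A (0.20) in shCDS and HILPDA (0.71), JMJD6 (0.55) and WSB1 (0.23) in shUTR had started less far above. LOX in shCDS had started below (-0.78). AK4, IGFBP3, STC2, ERO1A, HILPDA and JMJD6 are named after their values were seen.

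The other 4 lists moved less. The median difference from SK-N-MC shCtrl without Dox over all genes was 0.14 in shCDS and 0.18 in shUTR. The oxygen-sensing machinery (10 kept of 14) had 0.43 and 0.39, with 0 genes past 1. It includes CITED2, a competitor for the coactivator of hypoxia-inducible factor, and RBX1, a subunit of the VHL ligase. The other glycolysis genes (11 kept of 27) had 0.19 and 0.32, with 1 gene past 1 in shCDS and 0 in shUTR. Pyruvate dehydrogenase and its regulators (10 kept of 12) had 0.36 and 0.53, and its phosphatase PDP1, which opposes PDK1, was 1.15 and 0.83 above SK-N-MC shCtrl without Dox. The mitophagy partners of BNIP3 and BNIP3L (9 kept of 14, such as the autophagy receptors SQSTM1 and OPTN) had 0.12 and 0.33. In these 4 lists no gene fell by 1 or more with Dox in SK-N-MC shCDS or shUTR.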

How the data were processed

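Total RNA of 12 cultures was hybridised to Human Clariom D arrays. Each deposited value is the log2 signal of 1 probe set, made by the authors with SST-RMA (background correction, quantile normalization and summary), on hg38 per the submitters' processing notes, with 135750 probe sets in all, of which 36176 carry 1 gene symbol. Replicate RNA was not arrayed, and array number limits the precision. The brightest probe set of a gene over the 12 arrays was used, after a filter at a mean of 6.5 over the Dox(-) arrays. Single arrays were compared without a test, with 1 log2 unit as the threshold of difference. Across derivative lines, limma 3.58.1 (R 4.3.3; lmFit, eBayes, two-sided, Benjamini-Hochberg over 15247 genes) was used and tested on simulated data. Members and lists were chosen with earlier results of these data known. Values in all 12 arrays are given for the 3 markers and the members with the largest mean Dox difference in SK-N-MC shPRC1, 12 in all, for paralogs as a range or values, and for up to 4 genes of other lists. Alternatives were shifted medians, other filters, mean over probe sets, a signal-dependent prior, a random line effect, other thresholds and leaving out each line. Sequences are from RefSeq, and CA9, SLC16A3 and PFKFB4 had no probe set of 1 symbol.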

Additional observations from a re-analysis of the deposited data

Results flagged for a closer look

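SLC2A1 stood out among the 4 shPRC1 lines, since its Dox difference was 0.63 in RDES shUTR and between -1.27 and -1.07 in the other lines. The comparison was made for 12 members, and chance marks about 1 in 20 such groups. STC1 differed between the cell lines in the test of the difference itself, with a Dox difference 3.36 lower in SK-N-MC shPRC1 (-3.36 ± 0.37, adjusted p = 0.0223). It fell in 2 of 2 SK-N-MC lines and had a positive difference in 2 of 2 RDES lines. The RDES values were 1.06 in shCDS and 0.24 in shUTR, and SK-N-MC shCtrl had 0.26.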

How the results depend on the processing

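Of 417 values of single genes recomputed under an alternative, 393 kept their direction and their side of the threshold, 15 gained and 9 lost a call, and none of these 417 changed direction. Of 221 summary values, 150 stayed close, 70 moved and 1 changed direction. Values relative to SK-N-MC shCtrl or to Dox(-) depended on the scaling of the arrays, since the medians of all genes differed by up to 0.26 between arrays. With arrays shifted to a common median, the members' median was 0.60 and 0.58 above SK-N-MC shCtrl without Dox in shCDS and shUTR, and -0.28 for the Dox difference of shUTR, and the tests gave -0.52 for the Dox effect in SK-N-MC against shCtrl, -0.52 against RDES, 0.54 for the Dox(-) level and 0.13 for the Dox(+) level, with 0 calls between cell lines and 6 calls at the Dox(+) level. Without the filter the members' medians were 0.59 and 0.71 without Dox and -0.36 and -0.50 for the Dox differences, the Dox effect in SK-N-MC called 2 genes, both members, and the Dox(+) level 31. Without subtraction it called 5 genes with 2 members, at a median of -0.57. With a prior that follows the signal there were 0 calls between cell lines and 20 at the Dox(+) level. With a filter at 8, or all 12 arrays and the line as a random block, 49 genes were called at the Dox(-) level, and the random block called 92 at the Dox(+) level. At thresholds of 0.5 and 1.5 log2 units, 19 and 5 members in shCDS and 22 and 5 in shUTR were higher without Dox, and 15 and 5 in shCDS and 16 and 3 in shUTR fell with Dox. The cause of these changes was not tested.

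Leaving out each line in turn gave 0 to 1 calls for the Dox effect over 4 lines (members' median -0.81 without the pair labelled RDES shCtrl to 0.11 without SK-N-MC shCtrl), 0 to 3 genes (0 to 2 members, at a median of -0.81 to -0.50) for SK-N-MC against shCtrl, 0 to 2 genes (0 to 2 members, at -0.83 to -0.51) against RDES, 5 to 66 genes at the Dox(-) level (median 0.51 to 0.83), 0 to 17 at the Dox(+) level (median 0.04 to 0.08) and 2900 to 5296 between the cell lines without Dox. Without SK-N-MC shCDS, 5 genes were called at the Dox(-) level and 0 at the Dox(+) level. The members' median at the Dox(-) level was 0.51 without SK-N-MC shCtrl and 0.83 without the pair labelled RDES shCtrl. An arm left with 1 line was assumed to vary like the others. With 6 lines and 3 residual degrees of freedom a result that missed the threshold does not show equal levels.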
